A study of Mus musculus with 8 samples.

Results

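The 10 genes described here encode enzymes that clear superoxide, peroxides and quinones, or that serve those enzymes. They were taken by name from the expression matrix of regulatory T cells (Tregs), which lists 56980 genes: Sod1, Sod2, Cat, Gpx1, Gpx4, Nqo1, Hmox1, Srxn1, G6pdx and Gsta4. The Tregs were sorted by flow cytometry from the peripheral blood of male C57BL/6j mice, 8 weeks old when bought, and RNA was sequenced in 4 libraries of HADA mice and 4 libraries of control mice. HADA, high-altitude de-acclimatization, is the readjustment after a return from high altitude. Here it was modelled by keeping mice at low pressure, as at 6000 m, in a chamber for 28 days before their return to normoxia, and the controls were kept in normoxia. No engineered allele or drug is named for these mice. The sources used here do not give the day of sorting for these libraries, or whether a library came from 1 mouse or from pooled mice, so that p-values measure the spread between these libraries, which may be technical.

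Superoxide, a by-product of respiration and of the phagocyte NADPH oxidase, is turned into hydrogen peroxide by superoxide dismutases. Catalase, glutathione peroxidases and peroxiredoxins then remove the peroxide, the last 2 kinds of enzyme at the cost of glutathione or thioredoxin, which are recharged with NADPH. NRF2, the product of Nfe2l2, is held back by KEAP1 under basal conditions. Under oxidative or electrophilic stress it binds antioxidant response elements near genes such as Nqo1, Hmox1, Srxn1 and the glutathione S-transferases, while BACH1 represses Hmox1 at the same elements. The title of the series names Nrf2 in these Tregs, and the comparison below asks how the detoxifying enzymes themselves stood in the same libraries.

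The antioxidant response element has the core TGACNNNGC, and the promoters were searched for it because it is the site through which NRF2 acts. RefSeq promoter windows (build GRCm38.p6, 250 bases before to 50 after a start) were available for 8 of the 10 genes, in 11 windows, and Hmox1 and Gsta4 had no entry. The core, on either strand, lay in the windows of 3 of these 8 genes, Sod1, G6pdx and Srxn1, and in those of 14.0% of all 27025 genes with a window (12.4% of 32851 windows). In Srxn1 it lay after the start, while the 2 matches before a start are shown here on the gene's strand, with the core in capitals in its reverse form, GCNNNGTCA, and no other motif was searched.
Sod1: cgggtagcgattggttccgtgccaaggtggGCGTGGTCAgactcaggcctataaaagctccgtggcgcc
G6pdx: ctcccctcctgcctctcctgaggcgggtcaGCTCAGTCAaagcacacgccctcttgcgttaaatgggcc
The Sod1 stretch is chr16:90220676-90220744 on the plus strand, and the core begins 56 bases before the start. The G6pdx stretch is chrX:74428899-74428967 on the minus strand, and its core begins 57 bases before the start. A match is a description of the letters only. Sites outside the windows were not searched, so a window without a match does not show that the gene lacks an element.

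Total counts ranged from 22929193 to 28240337 in HADA and from 14452433 to 22584062 in control replicates 2 to 4, and were 1477431 in control replicate 1. A gene with 3 counts, taken as the floor, stood at 2.03 CPM, the count relative to the library total, in control replicate 1 and between 0.106 and 0.208 CPM elsewhere, counting error only. Mitochondrial genes took 6.20% ± 1.07 of the HADA counts and 2.19% ± 1.32 of the control counts, and ribosomal protein genes took 4.93% ± 0.537 and 1.56% ± 1.34 (SD, n = 4 each), without overlap between the groups. Haemoglobin genes took between 0.00967% and 0.252% in HADA, between 0.226% and 0.583% in control replicates 2 to 4 and 3.08% in control replicate 1. All 7 tested Treg markers had a positive log2 fold change (median 2.57), but Foxp3 and Tnfrsf18 were at 0 in every library because other genes cover their spans. Of the marker lists of other cells, the median was 1.6 for 8 CD4 T cell genes, 2.13 for 8 CD8 T and NK genes, 0.59 for 6 B cell genes, 1.24 for 9 myeloid genes, -3.45 for 7 erythroid genes and 2.46 for 6 platelet genes. In these 7 lists 1 gene passed the thresholds given below, Cd8b1, which was higher in HADA. Summed over their list, Treg markers stood at 903 to 2070 CPM in HADA and at 379 to 1132 CPM in control. B cell markers stood at 2175 to 4368 and at 1141 to 6234 CPM, above the Treg markers in every library. The part of other cells in the enzyme levels was not tested. In bulk RNA of this kind, fewer cells of a type and less RNA per cell cannot be told apart.

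The counts cover the whole span of each gene on GRCm39, introns included, and reads on bases shared with another gene, on either strand, were left out. This decided what could be seen of some of the enzymes. G6pdx, the X-linked glucose-6-phosphate dehydrogenase that starts the pentose phosphate pathway and supplies NADPH, lies at chrX:73453089-73472800 inside the span of Ikbkg on the opposite strand. It was listed at 0 in all 8 libraries, as were all 1077 protein-coding genes whose spans are fully covered, and its level was therefore not measured. Gpx1, the cytosolic glutathione peroxidase (chr9:108216102-108217542), keeps 231 of its 1441 bases, since Gm57050 on the opposite strand covers 84.0%. Sod1 loses 11.7% of its span to Scaf4. The other 7 genes are free of overlap.

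Neither superoxide dismutase passed the test between the groups, and both varied widely among controls. Sod1, the copper-zinc enzyme of the cytosol (chr16:90017642-90023217), stood at 44.3, 32.9, 50.4 and 68.5 CPM in HADA replicates 1 to 4 and at 36.0, 15.6, 97.6 and 192 CPM in control replicates 1 to 4, scaled with TMM as are all CPM below unless stated. The HADA libraries all lay above control replicate 2 and below control replicates 3 and 4, and control replicate 1 lay among them. The mean was 49.0 ± 14.9 CPM in HADA and 85.4 ± 79.3 CPM in control (SD, n = 4 each), and the log2 fold change was -0.80 (SE 0.858, adjusted p = 0.532, quasi-likelihood test of edgeR, Benjamini-Hochberg adjustment over all genes tested). Without control replicate 4 it was 0.04.

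Sod2, the manganese enzyme of the mitochondrial matrix (chr17:13225733-13258950), was measured at 5.29, 106.7, 198 and 49.5 CPM in HADA and at 86.4, 74.0, 342 and 384 CPM in control. HADA replicate 1 stood far below every other library, with 134 counts, and control replicates 3 and 4 stood above every HADA library. The log2 fold change was -1.30 (SE 1.0, edgeR, adjusted p = 0.386), and it stayed negative, from -1.93 to -0.84, when each library was left out in turn. The ratio of Sod2 to Sod1 counts within a library, which does not depend on scaling, was 2.38, 4.74, 3.51 and 2.0 in control and 0.120, 3.24, 3.93 and 0.724 in HADA. In HADA replicates 1 and 4 Sod2 had fewer counts than Sod1, and in the other 6 libraries it had more. Sod2 in HADA replicate 1 stood at 0.80 times the background of receptor genes described below. The uncovered spans differ in length (33218 bases for Sod2, 4926 for Sod1), so the counts do not rank the levels of the 2 genes. The mean log2 ratio differed by -1.54 between the groups, with overlap (exact two-sided permutation test, p = 0.314, adjusted p = 0.419 over the 4 ratios tested).

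**Figure D1:**
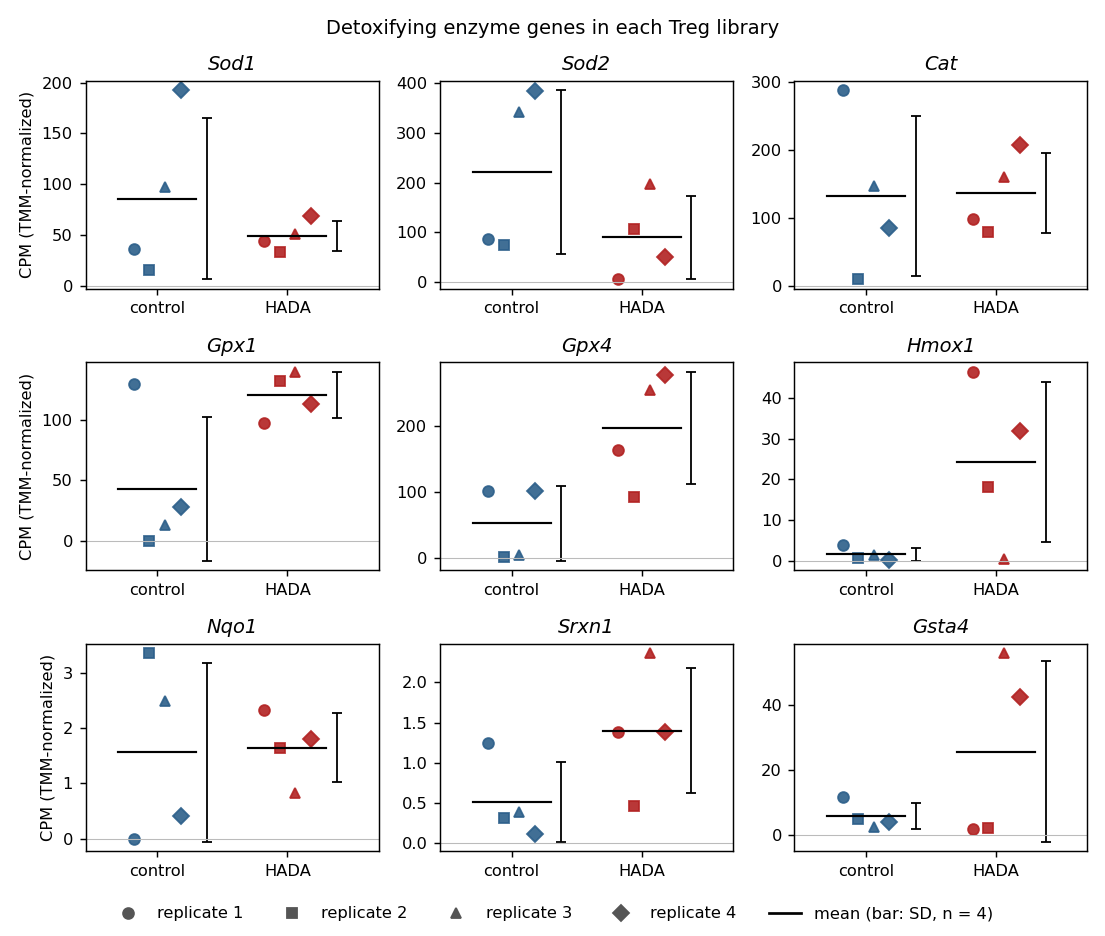
TMM-normalized CPM of the 9 enzyme genes with counts, in the 4 control and 4 HADA libraries, with 1 marker shape per replicate number, the mean as a line and the SD as a bar (n = 4). Control replicate 1 (circle) lies within or above the HADA libraries for Cat and Gpx1, and Hmox1 is high in HADA replicates 1, 2 and 4 and low in replicate 3.

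Of the peroxide-removing enzymes, catalase had nearly equal means in the groups, while Gpx1 and Gpx4 had higher means in HADA without passing the test. Catalase, the haem enzyme of peroxisomes that splits hydrogen peroxide without using glutathione (Cat, chr2:103284194-103315505), had 98.0, 80.0, 160 and 207 CPM in HADA and 287, 9.96, 147 and 85.2 CPM in control. The highest and the lowest of the 8 values both belonged to controls. The means were 136 ± 58.4 and 132 ± 117 CPM (SD, n = 4 each), and the log2 fold change of 0.04 (SE 0.894, edgeR, adjusted p = 0.977) took either sign when a library was left out, from -0.34 without control replicate 2 to 0.87 without control replicate 1.

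Gpx1, which removes hydrogen peroxide with glutathione, stood at 97.5, 132, 140 and 113 CPM in HADA. In control it spanned 130, 0.188, 12.9 and 28.4 CPM, so that control replicate 1 lay within the HADA range and the other 3 controls below it. Control replicate 2 had 6 counts in a library of 14452433. It had a log2 fold change of 1.5 (SE 1.22, edgeR, adjusted p = 0.409), or 3.23 (edgeR, adjusted p = 0.084) without control replicate 1. These values rest on 231 bases and say nothing of the rest of the gene.

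Gpx4, the selenoenzyme that reduces lipid hydroperoxides in membranes (chr10:79883000-79892273), stood at 164, 92.5, 255 and 276 CPM in HADA. Controls stood at 102 and 102 CPM in replicates 1 and 4 and 1.97 and 4.89 CPM in replicates 2 and 3. HADA replicate 2 lay just under the 2 higher controls. The mean was 197 ± 84.8 CPM against 52.7 ± 56.9 CPM (SD, n = 4 each), and the log2 fold change of 1.91 (SE 1.13, edgeR, adjusted p = 0.271) stayed between 1.5 and 2.54 without any single library.

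Within a library, each HADA sample held fewer Cat counts per Gpx1 count than any control. There were 1.01, 0.607, 1.14 and 1.84 Cat counts per Gpx1 count in HADA and 2.21, 49.0, 11.4 and 3.0 in control, and the groups did not overlap. The mean log2 ratio was 0.09 ± 0.66 in HADA and 2.96 ± 2.04 in control (SD, n = 4 each), a difference of -2.87 (exact two-sided permutation test, p = 0.029, adjusted p = 0.114 over the 4 ratios tested), where 4 libraries against 4 allow no smaller p. The difference failed the adjustment, and with the background of receptor genes described below subtracted it was -0.69 (adjusted p = 0.629, exact permutation test). Haemoglobin genes, which mark red cells and their precursors, took a lower share in HADA replicates 2, 3 and 4 than in any control and were highest in control replicate 1, where Cat and Gpx1 were high too. All 7 tested erythroid markers had a negative log2 fold change, from -4.84 to -2.78, with 0 past the thresholds by edgeR, 7 lower at an unadjusted p below 0.05 (14.7% of all genes) and 7 lower by DESeq2 (19.3%). Without control replicate 1, 2 of the 7 were lower by edgeR (19.7% of all genes) and the median moved from -3.45 to -1.76. Their summed level was 147 to 2809 CPM in HADA and 1033 to 28397 CPM in control, Alas2 was at 0 and covered, and Klf1 was too low to be tested. Their part in the levels of catalase and Gpx1 was not tested. The ratio of Gpx4 to Gpx1 was 1.68, 0.702, 1.82 and 2.44 in HADA and 0.785, 9.77, 0.379 and 3.59 in control. Its mean log2 difference of -0.25 took the other sign when single libraries were left out (exact two-sided permutation test, p = 0.83, adjusted p = 0.83).

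**Figure D2:**
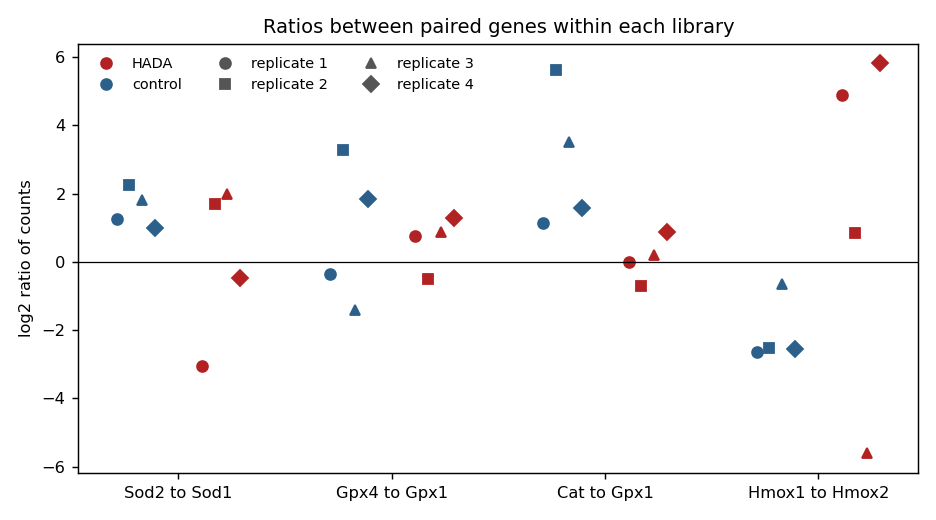
Log2 ratio of the counts of a pair of genes within each library (0.5 added to each count), for HADA and control replicates 1 to 4. The Cat to Gpx1 ratios run from -0.72 to 0.88 in HADA and from 1.14 to 5.61 in control, while the other 3 ratios overlap between the groups.

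Of the stress-inducible enzymes, Hmox1 had the largest fold change among the 9 genes tested. Haem oxygenase 1 opens free haem into biliverdin, iron and carbon monoxide (chr8:75820249-75827217). Its level was 46.5, 18.2, 0.295 and 32.0 CPM in HADA and 3.73, 0.751, 1.33 and 0.232 CPM in control. HADA replicates 1, 2 and 4 stood above every control, and HADA replicate 3, with 5 counts, stood below 3 of the 4 controls. The control values rested on 6, 24, 38 and 4 counts. HADA replicate 3 and control replicates 2 to 4 lay below the background of receptor genes described below. The mean was 24.3 ± 19.7 CPM in HADA and 1.51 ± 1.55 CPM in control (SD, n = 4 each), and the log2 fold change of 4.17, or 18-fold, did not pass the threshold (SE 1.35, edgeR, adjusted p = 0.106). Under DESeq2 it did (log2 fold change 4.08, adjusted p = 0.0021), as it did with edgeR without control replicate 1 (5.10, adjusted p = 0.035). Over the other 7 single-library omissions the edgeR log2 fold change ran from 3.48 to 4.67 and did not pass.

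The sister enzyme Hmox2, the constitutive haem oxygenase, had a log2 fold change of -0.17 (edgeR, adjusted p = 0.928) counted outside the 42.9% of its span that other genes cover. Per Hmox2 count there were 29.9, 1.79, 0.0205 and 56.1 Hmox1 counts in HADA and 0.160, 0.173, 0.636 and 0.170 in control. Hmox2 itself rested on 39, 243, 268 and 9 counts in HADA and on 40, 141, 60 and 26 in control. It gave no fold change with the receptor background described below subtracted, and its counts were not compared with that background in each library. The mean log2 ratio was 3.58 higher in HADA, with overlap through HADA replicate 3 (exact two-sided permutation test, p = 0.229, adjusted p = 0.419). Macrophages express haem oxygenase 1 strongly, and the summed myeloid markers stood at 1984, 4002, 4406 and 1688 CPM in HADA and at 2007, 84.4, 412 and 1293 CPM in control. Their part in the Hmox1 levels was not tested. The study's methods define mouse Tregs as CD4+CD25+ for co-cultures and do not give the gate for these libraries. Of the 9 myeloid markers tested, of 12 listed, 7 had a positive log2 fold change and 0 passed the thresholds by edgeR, with 2 higher at an unadjusted p below 0.05 (12% of all genes) and 2 higher by DESeq2 (11.2%). Itgam, Mpo and Ly6g were too low to be tested.

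Srxn1, sulfiredoxin 1, restores peroxiredoxins that peroxide has over-oxidised (chr2:151947436-151953296). It was low throughout, at 1.38, 0.461, 2.36 and 1.38 CPM in HADA, from 11 to 40 counts, and 1.24, 0.313, 0.384 and 0.116 CPM in control, from 2 to 11 counts. All 4 HADA libraries stood above control replicates 2 to 4, and control replicate 1 stood above HADA replicate 2 on only 2 counts. The log2 fold change was 2.0 (SE 0.739, edgeR, adjusted p = 0.131). As with Hmox1, it passed under DESeq2 (1.76, adjusted p = 0.038) and with edgeR without control replicate 1 (2.43, adjusted p = 0.026).

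Nqo1, the quinone reductase commonly read as the standard NRF2 target, had nearly equal means in the groups (chr8:108114857-108129838). It stood at 2.33, 1.63, 0.827 and 1.80 CPM in HADA and at 0, 3.35, 2.48 and 0.406 CPM in control, on 0 to 107 counts. The highest and the lowest libraries were again controls. In control replicate 1, which had 0 counts, the floor was 2.03 CPM of the library total, without TMM. The log2 fold change was -0.09 (SE 0.754, edgeR, adjusted p = 0.944) and changed sign when single libraries were left out, from -0.41 to 0.48. Nqo2, its relative, is fully covered by other genes and was at 0, so that their ratio could not be formed.

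Gsta4, the glutathione transferase that conjugates 4-hydroxynonenal from oxidised lipids (chr9:78090056-78116631), split the HADA group. It stood at 1.97 and 2.14 CPM in HADA replicates 1 and 2 and at 56.1 and 42.6 CPM in replicates 3 and 4. Controls stood at 11.8, 5.07, 2.45 and 4.11 CPM, between these pairs. HADA replicates 1 and 2 and control replicates 2 to 4 lay below the background of receptor genes described below, so their order carries no information on Gsta4. Its log2 fold change of 2.16 did not pass (SE 1.15, edgeR, adjusted p = 0.232), and it ran from 1.55 without HADA replicate 3 to 2.88 without control replicate 1. Hmox1 and Gsta4 were both high in HADA replicate 4, whereas replicate 3 was high in Gsta4 and low in Hmox1, and replicate 1 the reverse.

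Together, 0 of the 9 tested enzymes passed the thresholds in either direction with edgeR (an adjusted p under 0.05 with a log2 fold change past 1 in size), where 1.65% of the 21991 genes tested passed as higher in HADA and 0.477% as lower. At an unadjusted p below 0.05 with the same fold, 2 were higher, Hmox1 and Srxn1, and 0 lower, against 12% and 14.7% of all genes. DESeq2 called the same 2 genes, against 11.2% higher and 19.3% lower of all genes, and so did edgeR without control replicate 1, against 15.5% and 19.7%. limma called 0 with a pseudocount of 1 or of 0.1. No gene of the 9 had its 4 HADA libraries all above or all below the 4 controls, an arrangement found for 9.13% (above) and 5.7% (below) of all genes. Against control replicates 2 to 4, 2 genes, Gpx1 and Srxn1, were wholly above and 0 wholly below, as were 18.4% and 26.6% of all genes. The log2 fold change was positive for 6 genes and negative for 3, with a median of 1.5 against 0.01 for all genes tested. This difference depended on the filter and background: the median was -0.50 over the 5 enzymes with at least 10 counts in every library (0.03 for all genes), 0.11 over 6 in libraries drawn down to the smallest total (0.00), and 0.39 over 6 with the receptor background subtracted, below the 1.01 of all genes. With DESeq2's size factors the median of all genes shifted to -0.19, Cat turned negative at -0.07 and the other 8 kept their sign.

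**Figure D3:**
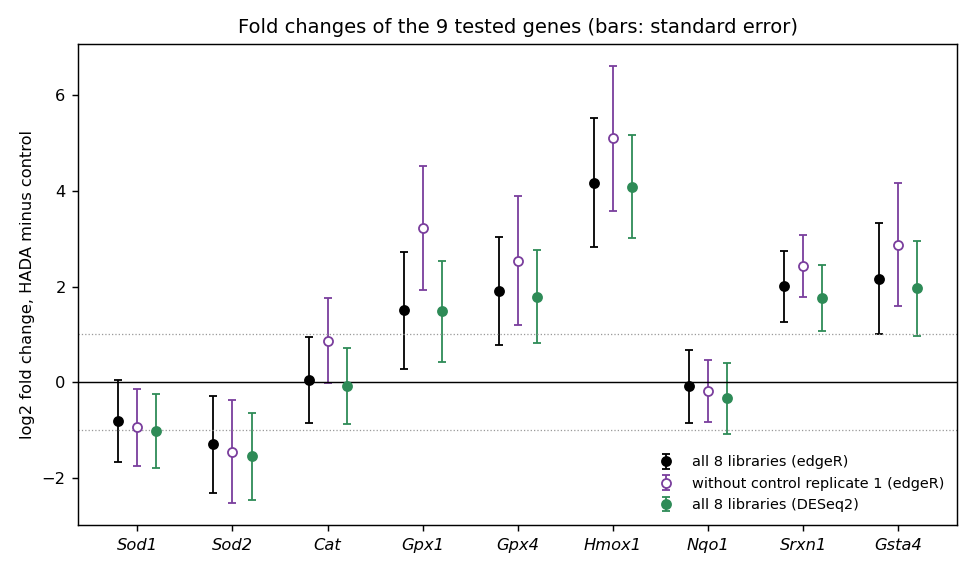
Log2 fold change (HADA minus control) of the 9 genes, with its standard error as a bar, from edgeR on all 8 libraries, from edgeR without control replicate 1 and from DESeq2. Dotted lines mark the fold threshold of 1 on the log2 scale. Hmox1 has the highest estimate under all 3 fits, and only Hmox1 and Srxn1 pass in the last 2.

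To compare the genes with each other, counts were taken as CPM of the library total, without TMM, per kb of uncovered span. The order of the HADA medians was Gpx1 (392 CPM per kb), Gpx4 (17.1), Sod1 (7.51), Cat (3.12), Hmox1 (2.80), Sod2 (2.14), Gsta4 (0.544), Srxn1 (0.180) and Nqo1 (0.094). In control the medians were 84.6 for Gpx1, 16.5 for Sod1, 7.08 for Sod2, 4.73 for Gpx4, 4.07 for Cat, 0.273 for Gsta4, 0.240 for Hmox1, 0.116 for Nqo1 and 0.101 for Srxn1 CPM per kb. Since introns count towards the span, a gene with long introns stands lower on this scale. Cat had more counts than Sod1 in every HADA library and fewer uncovered exon bases (3302 against 3794). Per uncovered base of all annotated exons together, their order in HADA would therefore be reversed. The counts include introns, and which of these exons were used was not measured, so their order per exon base was not settled. The 231 uncovered bases of Gpx1 are all exon. In HADA the first 4 genes did not overlap with one another. Gpx1 ran from 306 to 594, Gpx4 from 10.4 to 18.6, Sod1 from 6.86 to 8.70 and Cat from 2.66 to 4.14 CPM per kb. From Cat downward each neighbour overlapped with the next, as Hmox1 (0.0284 to 5.99) did with Sod2 (0.143 to 4.01 CPM per kb). In control all neighbours overlapped except Cat, from 0.703 upward, and Gsta4, up to 0.484 CPM per kb.

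Olfactory and vomeronasal receptor genes, which lymphocytes are not known to use, give the density that background reads reach in a library. Over 1743 such genes without overlap it was 0.178, 0.182, 0.108 and 0.0720 CPM per kb in HADA and 0.0540, 0.734, 0.360 and 0.160 in control. Control replicate 2 had the highest background, and there Cat stood at 0.957 and Gpx4 at 0.640 times it. Against this measure Sod1 and Gpx1 were above the 95th percentile of the receptor genes in all 8 libraries, Cat in 4 HADA and 3 control libraries, Sod2 in 3 and 4, and Gpx4 in 4 and 2. Hmox1 passed it in 3 HADA libraries (33.7, 14.9 and 39.9 times the receptor density in replicates 1, 2 and 4) and in control replicate 1 (10.8 times), and was below the receptor density in the other 4 libraries. Gsta4 passed it in HADA replicates 3 and 4 and in 1 control. Srxn1 passed it in 2 HADA libraries and in 0 controls.

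Nqo1 passed the 95th percentile in none of the 8 libraries. It had 0.784, 0.623, 0.344 and 1.05 times the receptor density in HADA, and from 0 to 0.673 times in control. Its counts were thus not detectable above the background of these libraries, and they allow no statement about expression of the gene. The same limit applies to Srxn1 outside HADA replicates 3 and 4, where it did not pass the percentile.

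**Figure D4:**
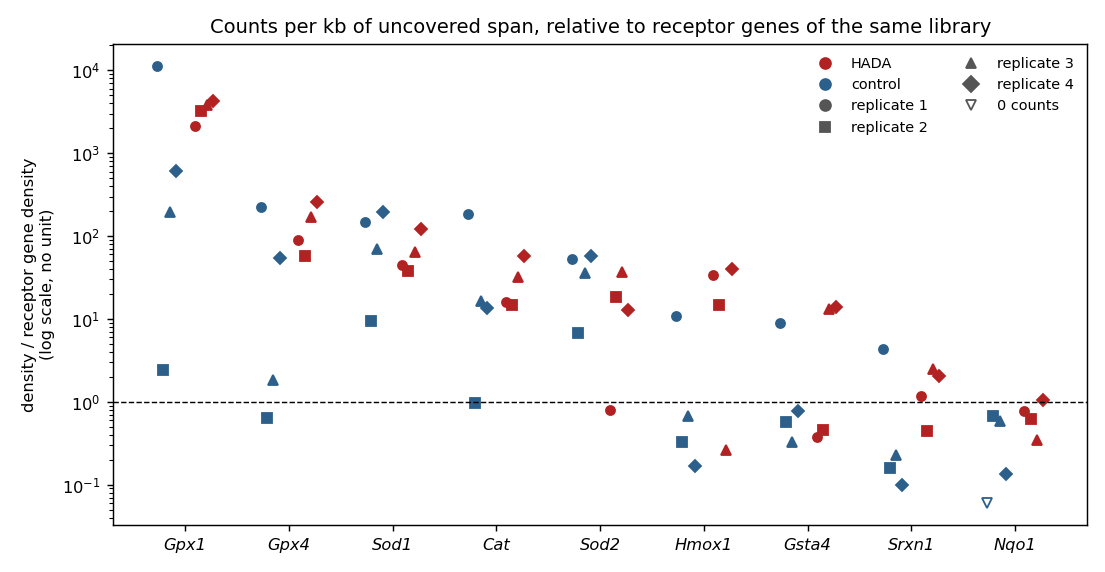
Counts per kb of uncovered span divided by the density over the receptor genes of the same library, on a log scale, for the 9 genes in HADA and control replicates 1 to 4. The dashed line is the receptor density, and an open triangle at the bottom stands for 0 counts. Gpx1 lies highest in every library except control replicate 2, where Sod1 and Sod2 lie above it at 9.53 and 6.70, and Nqo1 lies at or below about 1.05 in every library.

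The genes that work beside these enzymes were taken from 10 lists of 101 genes, of which 100 were found by name and 84 tested. By edgeR, 1 passed as higher in HADA, Gstp2, and 0 as lower, against the 1.65% and 0.477% of all genes. At an unadjusted p below 0.05 the counts were 14 higher and 2 lower, where 12% and 14.7% of all genes were called, and with DESeq2 15 and 2, where 11.2% and 19.3% were. Without control replicate 1 they were 16 and 2 of 89 tested, beside 15.5% and 19.7% of all genes, and without any other single library 0 higher. The log2 fold change was positive for 65 and negative for 19, with a median of 1.15, while 50.2% of all genes were positive. This median, against 0.01 for all genes, also depended on the filter and background. With the receptor background subtracted it was 0.876 over 65 genes, below the 1.01 of all genes, of which 71.3% were positive. It was 0.555 over 64 genes when each library had to hold 10 or more counts of a gene (all genes 0.03). Drawn down to the smallest total, it was 0.547 over 70 genes (all genes 0.00). Of the 84 genes first tested, 13 had all HADA libraries above all controls, as did 9.13% of all genes. None had them all below, against 5.7% of all genes. The mitochondrial and ribosomal protein shares of counts were higher in HADA too, and their part in these values was not tested.

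Gstp2, a pi-class glutathione transferase, stood at 1.97, 1.88, 1.42 and 2.95 CPM in HADA and at 0.621, 0.376, 0.384 and 0.174 CPM in control, where it rested on 1 to 12 counts. It passed as higher in HADA, with a log2 fold change of 2.58 (SE 0.579, edgeR, adjusted p = 0.042) and no overlap of the values. Control replicate 1 had 1 count, under the floor of 3 counts, so a lack of overlap is not shown for that library. The call was lost under 13 of the 15 alternatives that could be computed, and Gstp1 is a near-identical copy between which reads may be split, so the value is uncertain. In the list of glutathione transferases, 12 of 14 tested genes had positive log2 fold changes (median 1.59).

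The thioredoxin and peroxiredoxin list, whose enzymes share peroxide removal with Gpx1 and catalase, had 13 of 13 tested genes positive (median 1.58). Txn1, thioredoxin, had the smallest p of the list, and its HADA libraries all lay above the controls (log2 fold change 3.47, edgeR, adjusted p = 0.075). In the list of glutathione peroxidases and selenoprotein synthesis, 6 of 9 were positive (median 0.24). Sephs2, which makes the selenium donor used to build Gpx1 and Gpx4, stood the other way. It was at 65.6, 40.4, 28.3 and 34.3 CPM in HADA and at 47.2, 509, 430 and 964 CPM in control, so that controls 2 to 4 lay above every HADA library and control replicate 1 did not (log2 fold change -3.53, SE 0.913, edgeR, adjusted p = 0.064). It passed as lower without control replicate 1 (-3.78, edgeR, adjusted p = 0.0079) and with DESeq2 (-3.76, adjusted p = 6.62e-05), as did 19.7% and 19.3% of all genes.

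Glutathione synthesis and recycling had 7 of 9 genes positive (median 1.18), and the gene with the smallest p was Gclm, the modifier subunit of the rate-limiting ligase (-2.04, edgeR, adjusted p = 0.137). Gclm rested on 12 to 102 counts, with 58.7% of its span covered, and gave no value with the receptor background subtracted. NADPH production, the list G6pdx would belong to, had 8 of 11 positive (median 0.45), led by Taldo1, transaldolase of the pentose phosphate pathway (2.41, edgeR, adjusted p = 0.186, without overlap). Among dismutases and copper supply, 2 of 4 were positive (median 0.31), with Atox1, a copper chaperone, first (2.93, edgeR, adjusted p = 0.135, without overlap). In haem breakdown and iron storage, 4 of 6 were positive (median 1.34), and Ftl1, the ferritin light chain that stores the iron set free from haem, had no overlap (2.77, edgeR, adjusted p = 0.157). Quinone and carbonyl reduction had 2 of 4 positive (median 0.30), with Ephx1, microsomal epoxide hydrolase, first (1.02, edgeR, adjusted p = 0.548). Among superoxide sources, 5 of 6 were positive (median 0.71), with Cyba, the small membrane subunit of the NADPH oxidase, first (2.80, edgeR, adjusted p = 0.192, without overlap). Control replicate 1 decided much of these values. Without it Gclm, which had 11.8 CPM there on 19 counts and 1.28 to 3.19 CPM in the other controls, was at -0.90 (edgeR, adjusted p = 0.123) and Taldo1 at 3.26 (edgeR, adjusted p = 0.080). Atox1 (3.80, adjusted p = 0.043), Ftl1 (4.0, adjusted p = 0.045), Cyba (4.77, adjusted p = 0.039) and Txn1 (4.59, adjusted p = 0.0087) then passed as higher by edgeR. In that fit 15.5% of all genes passed as higher, and these genes were named for the smallest p of their lists.

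Nfe2l2, which encodes NRF2, stood at 175, 145, 335 and 303 CPM in HADA and at 131, 4.92, 124 and 71.2 CPM in control. The groups did not overlap, with HADA above as for 9.13% of all genes, and the value of control replicate 1 rested on 210 counts. The log2 fold change was 1.53 (SE 0.901, edgeR, adjusted p = 0.268), and 1.38 with DESeq2 (adjusted p = 0.163). With the receptor background subtracted it was 0.90 (edgeR, adjusted p = 0.957), below the median of 1.01 for all genes. Keap1, its inhibitor, was too low to be tested, with 54, 7, 13 and 8 counts in HADA and 8, 5, 7 and 4 in control and with 35.3% of its span covered. Of the 8 tested NRF2 regulators 6 were positive (median 0.89), with the small MAF protein gene Maff first (2.17, edgeR, adjusted p = 0.143). Maff rested on 2 to 137 counts and gave no value with the receptor background subtracted.

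**Figure D5:**
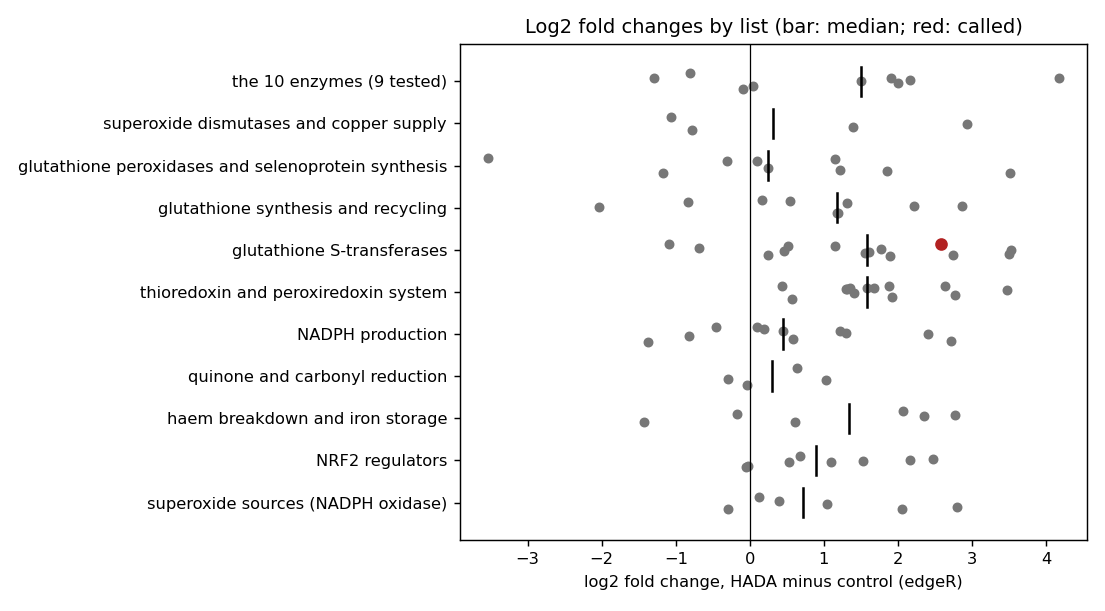
Log2 fold changes (HADA minus control, edgeR) of the 9 tested enzymes and of the tested genes of the 10 surrounding lists, each point 1 gene, with the median as a bar. The point in red, Gstp2, is the gene past the thresholds. All 13 thioredoxin and peroxiredoxin genes lie to the right of 0.

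The mean log2 CPM of the 9 genes was 4.10, 4.11, 4.6 and 5.14 in HADA and 4.01, 1.71, 3.38 and 3.48 in control, so that control replicate 2 stood lowest and control replicate 1 close to HADA replicates 1 and 2. Of 6286 other genes with a mean log2 CPM of at least 4, those with the most similar pattern over the 8 libraries were Ccar1 (Pearson r = 0.989), Clta (0.985), Ly6e (0.984), Taldo1 (0.984) and Clec2i (0.983). These correlations describe 8 points that share library depth and background, and no test was made of them.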

How the data were processed

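The transcriptome was measured in 8 libraries, grouped and numbered from their labels. Per the labels and the study's methods, the authors used FastQC and Trimmomatic on the reads, STAR for alignment to GRCm39, and featureCounts for counting, and they deposited unnormalized counts. The versions, strand setting and treatment of multi-mapped reads are not given in the sources used here. Names came from GENCODE vM39, which holds 98.7% of the 56980 identifiers. Akr1b3 and Ahsp were not found by name. No pair of libraries had identical counts.

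edgeR 4.0.16 in R 4.3.3 was run on all genes (TMM, filterByExpr, quasi-likelihood test, no covariates), with the fold and p thresholds of the study's methods, which name DESeq2. DESeq2 1.42.0 and limma 3.58.1 were alternatives. log2 CPM used a prior count of 2. Log2 ratios of counts, with 0.5 added, were compared by exact permutation tests. The planned ratio of Nqo1 to Nqo2 could not be formed, so p-values were adjusted over 4. Other tables used Python 3.11.15. The edgeR fit was tested on simulated counts of 21991 genes, of which 200 were given a log2 change of 3 in size. It recovered 97% of them at a dispersion of 0.2. At 0.805, the common dispersion estimated from these libraries, it recovered 2.5%. A gene that did not pass is therefore not shown to be unchanged. Total counts ran from 1477431 to 28240337, and the floor of 3 counts covers counting error only, since copies of 1 cDNA molecule are not told apart.

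The 10 genes and all lists were chosen with earlier results of these data known. Named were the 10 genes, the genes of the surrounding lists past the thresholds, the gene with the smallest p of each list, Nfe2l2 and Keap1, and the 5 genes of most similar pattern. Genes that cover a span, Hmox2, Nqo2 and single markers were named in addition.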

Additional observations from a re-analysis of the deposited data

Results flagged for a closer look

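Among 52 measures tested for a library far from the other 3 of its group, 2 stood apart, where chance gives 2.6 (about 1 in 20). Keap1 in control replicate 1 had a log2 CPM of 2.34, against -1.97 to -1.54 in the other controls, on 8 counts in a library of 1477431. The log2 ratio of Hmox1 to Hmox2 in control replicate 3 was -0.65, against -2.64 to -2.53 in the other controls.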

How the results depend on the processing

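The number of all genes past the thresholds, 363 higher and 105 lower in HADA, was 2457 and 4247 with DESeq2, 2647 and 3233 at an unadjusted p, and 158 and 11 with the replicate number as a block. The higher count was 814 with limma on log2(CPM + 1), 93 with at least 10 counts in every library, 120 after drawing every library down to the smallest total and 103 with the receptor background subtracted. The lower count was 30 with limma on log2(CPM + 0.1) and 54 without a filter. Leaving out single libraries gave 28 to 3716 higher and 1 to 4732 lower, both highest without control replicate 1. Of the enzymes, 2 were higher with DESeq2 and at an unadjusted p, and 0 to 2 when single libraries were left out (2 without control replicate 1). None was lower under any alternative. The surrounding lists, with 1 higher and 0 lower, had 15 and 2 with DESeq2, 14 and 2 at an unadjusted p, 3 higher with limma on log2(CPM + 1), and 0 higher with DESeq2's size factors, without a filter, with the replicate block, with at least 10 counts, drawn down and with background subtracted, the last 3 with 1 lower. Single omissions gave 0 to 16 higher and 0 to 2 lower.

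Cat, 0.04 on the log2 scale, was -0.072 with DESeq2's size factors and -0.072 with DESeq2, -0.50 with at least 10 counts, -0.71 drawn down, -0.53 with background subtracted, and -0.34 to 0.87 when single libraries were left out. Nqo1, -0.09, was 0.27 and 1.01 with limma at pseudocounts of 1 and 0.1, 0.35 without a filter, 0.30 with the block and -0.41 to 0.48 with single omissions. Sod1 was -1.15 to 0.036 (without control replicate 4) and Hmox2 -0.88 to 1.55 with single omissions. The Gpx4 to Gpx1 log2 difference was 1.64 with background subtracted, 0.49 drawn down and -0.99 to 0.57 with single omissions. The cause of these changes was not tested. The enzymes with too few counts for the strict filter, the drawn-down libraries or the subtraction (among them Nqo1 and Srxn1) gave no value there. The median of all genes was 0.01, and 1.01 with background subtracted, -0.37 without a filter, and 0.13 and 0.31 with limma.

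Deviations of same-numbered HADA and control libraries correlated at -0.21, 0.25, -0.08 and -0.0032, and those of differently numbered libraries at -0.26 to 0.25. Such correlations over all genes cannot show whether same-numbered libraries were handled together, so pairing was not settled. The block called 0 of the enzymes and 0 of the surrounding genes. The depth of control replicate 1, with a floor of 2.03 CPM of the library total, limits what can be said of Nqo1, Srxn1 and Gstp2.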
